A study of Mus musculus with 2 samples.

Results

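CCL5-positive effector CD8 T cells of the mouse aorta were taken as cells with at least 1 unique molecular identifier (UMI) of the CD3 genes Cd3d, Cd3e and Cd3g, at least 1 of Cd8a and Cd8b1, none of Cd4 and at least 2 of Ccl5. The rule also limited UMIs of immature thymocyte genes (Dntt, Rag1 and Arpp21 together at most 1), of B cell genes (Cd79a, Cd79b and Ms4a1 at most 2) and of macrophage complement genes (C1qa, C1qb and C1qc at most 2). It found 306 of 2957 kept cells, 75 of 896 from mice on a chow diet and 231 of 2061 from mice on WD, as the labels write the second diet. All mice were C57BL6/J with the genotype ApoE-/-, so both groups carry the deletion of the apolipoprotein E gene, which makes mice prone to atherosclerosis, and no wild-type mice were compared. Viable leukocytes bearing CD45 were sorted from digested aortas, each diet contributed a pool of 10 aortas, and each pool gave 1 library with a 10x Genomics 3' kit. With 1 library per diet there is no replicate, so every difference between diets is one between 2 pools of mice. No test was possible, and the 95% intervals given cover counting error only.

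CD8 T cells leave the thymus as naive cells that recirculate through lymph nodes by way of homing receptors such as Ccr7. After antigen recognition they can become effector and memory cells that store granzymes in granules, secrete interferon gamma and CC chemokines, and enter tissues through receptors such as Cxcr3 and Cxcr6. Ccl5, also called RANTES, is a chemokine that attracts leukocytes and is held by memory CD8 T cells and natural killer (NK) cells as stored message. Clonally expanded CD8 T cells have been described in atherosclerotic plaque.

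The members were selected on their CD3, CD8, Cd4 and Ccl5 UMIs, so these values are given as a description. The gene Ccl5 lies at chr11:83525778-83530518 in GRCm38.p6, the build called mm10 in the submitters' processing notes. Members held a median of 72 Ccl5 UMIs with the chow diet (4 to 318) and 60 with WD (2 to 350). Ccl5 took a median of 1.73% and 2.04% of all UMIs of a member. The values lay far above the threshold in most cells, since 73 of 75 chow diet members and 223 of 231 WD members had 10 or more Ccl5 UMIs. Just inside the threshold, at 2 or 3 UMIs, there were 0 chow diet cells and 4 WD cells, and all 4 held UMIs of Nkg7, Ccr7 and Lef1 and none of Gzmk. Just outside it, with 1 Ccl5 UMI, there were 5 chow diet cells and 17 WD cells, of which 2 and 17 held Nkg7, 2 and 15 held Lef1, and 0 and 0 held Gzmk. Cd8b1 was found in 96.0% and 90.0% of members and Cd8a in 82.7% and 82.3%.

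**Figure D1:**
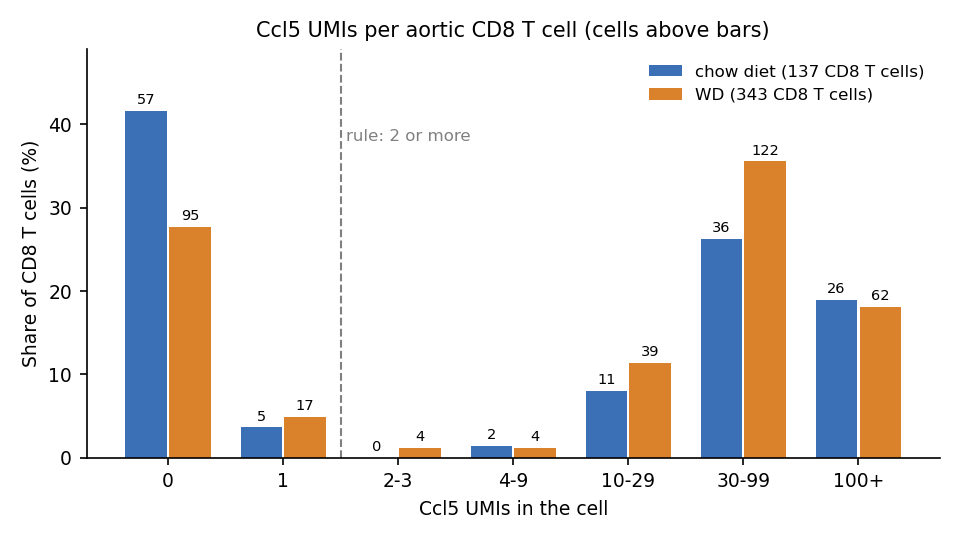
Share of CD8 T cells in percent (137 chow diet, 343 WD cells) by the number of Ccl5 UMIs in the cell, with cell counts above the bars and the threshold of the rule as a dashed line. Bars are high at 0 UMIs (57 and 95 cells) and from 30 to 99 UMIs (36 and 122 cells), and low from 2 to 9 UMIs.

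The label was checked against genes that the rule did not read. Nkg7, a protein of cytotoxic granule membranes, was found in 98.7% of chow diet members and 98.3% of WD members, against 3.0% and 1.6% of B cells (134 and 494 cells). Lat, the adaptor of the T cell receptor, was found in 86.7% and 80.1%, and Thy1 in 93.3% and 83.5%, against 5.22% and 2.83%, and 8.21% and 0.81%, of B cells. Of 8 NK cell markers 5 were detected in the members of each library, with 40 and 103 UMIs in 20.0% and 18.2% of cells. B cells held such a UMI in 58.2% and 54.5%, with up to 72 and 56 in 1 cell, so they give no background for this list. The list summed to 122 and 128 CPM in members against 11280 and 9800 CPM in NK-type cells, which were chosen on Ncr1 and Klrb1c of this list. Ncr1, which encodes the NK cell receptor NKp46, was found in 0 of 75 and 0 of 231 members, so that, at 3 counts of the total, up to 4% and 1.30% of members could hold a UMI of it. The gamma delta T cell markers summed to 1 UMI in the members of each library. Lat, Thy1 and Nkg7 were thus present in most members. Nkg7 was also found in 54.4% and 68.4% of CD8 T cells with 0 Ccl5 UMIs, so it does not set members apart by presence alone. Gzmk, the other marker of the label outside the rule, was found in 48.0% and 55.4% of members.

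Median depth was 4290 UMIs per member with the chow diet (1684 to 8937) and 3089 with WD (1439 to 12673), and the members' UMIs summed to 327998 and 804247. B cells, read beside shares of cells as a measure of free RNA, had medians of 2823.5 and 2459.5 UMIs. NK-type cells (no CD3 or Cd8b1 UMI and at least 2 UMIs of Ncr1 and Klrb1c; 17 and 26 cells) had medians of 3523 and 3314.5. CD8 T cells that met every other condition but held 0 or 1 Ccl5 UMIs, called Ccl5-low CD8 T cells here, had 3783.5 and 3442 (62 and 112 cells). The libraries shared 3 cell barcodes, of which 0 belonged to members. UMIs of other lineages were present in members: 21 of 75 (28.0%) in the chow diet library and 24 of 231 (10.4%) in the WD library held 3 or more UMIs of B cell, macrophage and dendritic cell markers.

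Members made up 8.37% of kept cells with the chow diet (6.64 to 10.4%) and 11.2% with WD (9.88 to 12.6%). Among CD3-positive cells the shares were 12.2% of 616 (9.70 to 15.0%) and 22.7% of 1016 (20.2 to 25.4%). Among CD8 T cells they were 54.7% of 137 (46.0 to 63.3%) and 67.3% of 343 (62.1 to 72.3%). After cells with immature lymphocyte UMIs were left out of the denominator, members were 10.9% of 689 and 12.7% of 1816 cells. The shares were higher in the WD library with each denominator, but a share in a CD45 sort moves with every other cell type, and more members cannot be told apart from fewer of the rest. With the rule applied to cells thinned to 1000 UMIs the shares of kept cells were 6.36% and 8.83%.

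Genes of the killing machinery stood at the top of the comparison with Ccl5-low CD8 T cells, and their promoters are shown because Gzmk, Gzma, Gzmb and Klrc1 were together among the genes with the highest ratios in both libraries. Gzmk and Gzma, 2 trypsin-like granzymes, are neighbours on chromosome 13, 70648 bases apart with 1 non-coding gene between them. Gzmb, which cleaves caspases in target cells, lies on chromosome 14. Klrc1 encodes the inhibitory receptor NKG2A. Each run below is the 250 bases before the first listed RefSeq start site in GRCm38.p6, read 5′ to 3′ on the gene's own strand (all minus). Capitals mark GTGTGA, the core bound by T-box factors such as Tbx21 and Eomes, or TGTGGT, the core bound by RUNX factors, on either strand (TCACAC and ACCACA).
Gzmk, chr13:113180966-113181215: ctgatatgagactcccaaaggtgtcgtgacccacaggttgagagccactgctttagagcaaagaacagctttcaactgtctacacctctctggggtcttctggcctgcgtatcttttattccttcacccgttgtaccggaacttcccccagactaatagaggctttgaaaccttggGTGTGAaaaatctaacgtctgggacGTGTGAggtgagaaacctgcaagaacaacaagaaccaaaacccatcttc
Gzma, chr13:113100982-113101231: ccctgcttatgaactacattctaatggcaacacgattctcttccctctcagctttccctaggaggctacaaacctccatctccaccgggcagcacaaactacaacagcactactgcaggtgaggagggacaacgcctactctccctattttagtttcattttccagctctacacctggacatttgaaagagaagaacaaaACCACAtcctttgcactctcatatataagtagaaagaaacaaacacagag
Gzmb, chr14:56262335-56262584: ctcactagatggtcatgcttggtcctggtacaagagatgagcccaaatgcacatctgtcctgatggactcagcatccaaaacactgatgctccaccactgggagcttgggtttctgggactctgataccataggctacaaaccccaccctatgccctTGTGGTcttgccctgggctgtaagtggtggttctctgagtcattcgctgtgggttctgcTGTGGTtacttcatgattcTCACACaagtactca
Klrc1, chr6:129678974-129679223: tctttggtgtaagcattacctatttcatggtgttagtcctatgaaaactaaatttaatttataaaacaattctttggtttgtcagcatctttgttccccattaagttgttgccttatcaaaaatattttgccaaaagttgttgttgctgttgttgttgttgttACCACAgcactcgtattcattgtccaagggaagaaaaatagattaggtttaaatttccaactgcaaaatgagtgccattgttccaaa
The Gzmk stretch held the T-box core at 2 places, beginning 74 and 49 bases before the start site, and no RUNX core. The Gzmb stretch held 1 T-box core and 2 RUNX cores, and the Gzma and Klrc1 stretches held 1 RUNX core each. Among the 12 genes with the highest ratios over Ccl5-low cells, 8 had a RUNX core in this window (66.7%), against 14.2% of 27025 genes in the RefSeq promoter table. The T-box core was found in 4 of the 12 (33.3%), against 12.2% of all genes. Of the 9 matched genes with the lowest ratios, 1 held the RUNX core (11.1%) and 2 the T-box core (22.2%). These are matches of letters in a window, no binding was measured, and 21 of the 24 genes named on these grounds had an entry. Klrc1, Klre1 and Klrk1, among the 8 with a RUNX core, lie close together on chromosome 6. The shares of all genes include genes not measured in these cells, and no enrichment was tested.

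Granzyme UMIs did not mark every member. Gzmk was found in 48.0% of chow diet members and 55.4% of WD members, with 0 and 0.2% of B cells holding a UMI. Gzmb was found in 48.0% and 38.5%, and Gzma in 24.0% and 28.1%, against 2.2% and 1.0% of B cells, while 0.75% and 0.20% of B cells held Gzmb. Thus a share of members held none of the 3: 23 of 75 (30.7%) and 61 of 231 (26.4%). Gzmk without the other granzymes was seen in 18.7% and 28.1% of members, and all 3 granzymes together in 12.0% and 15.2%. Gzmk with Gzmb alone made up 16.0% and 8.23%, and Gzmb by itself 10.7% and 9.09%. Prf1, which encodes the pore-forming perforin, was sparse, with UMIs in 4.0% and 5.2% of members against 11.8% and 19.2% of NK-type cells. Ctsw, a cathepsin of killer cells, was found in 78.7% and 78.8% of members, and Fasl, the death ligand, in 57.3% and 42.0%.

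**Figure D2:**
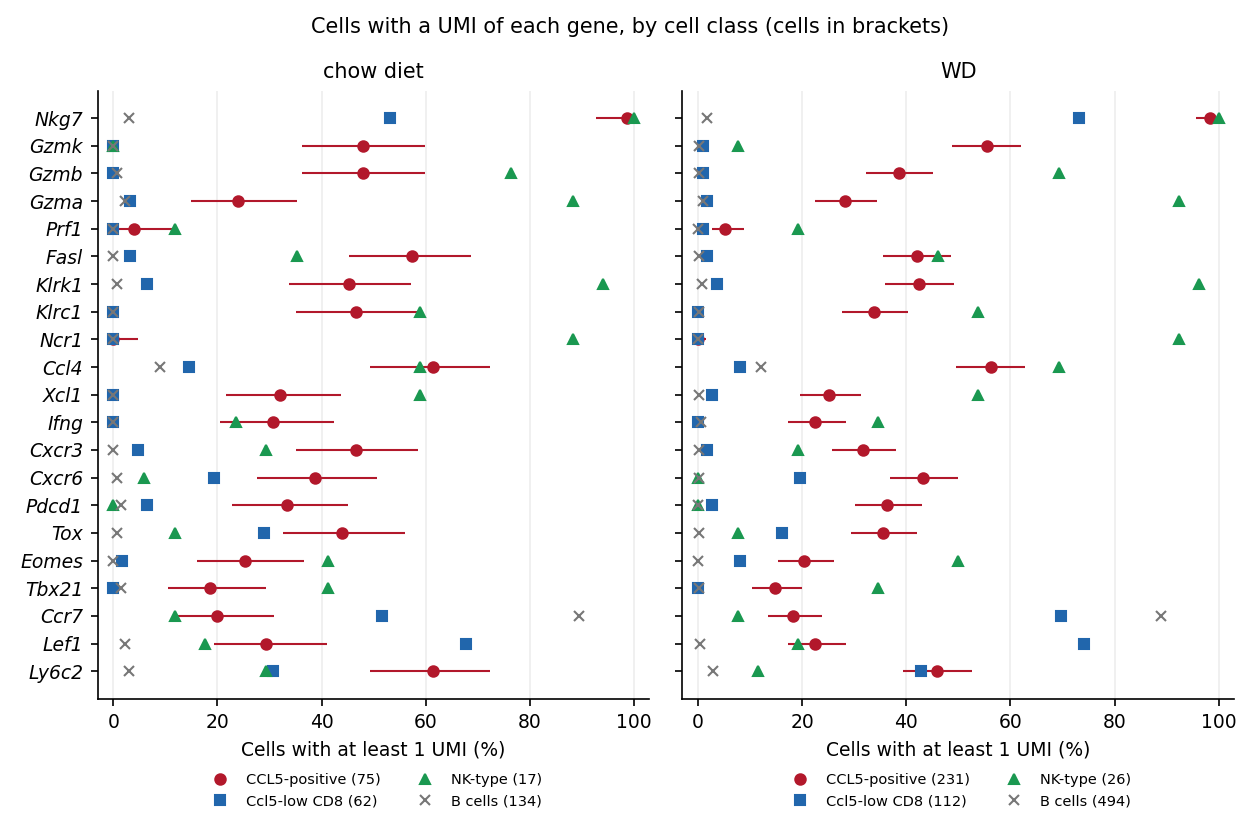
Share of cells with at least 1 UMI of each gene, in percent, in members (bars are exact 95% intervals), Ccl5-low CD8 T cells, NK-type cells and B cells, for each library. Gzmk was found in 48.0% and 55.4% of members, and Nkg7 in 98.7% and 98.3%; Ncr1 helped to choose the NK-type cells, so its share there is no finding.

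The share of members with a granzyme UMI was higher in bins with more Ccl5 UMIs. With 10 to 29 Ccl5 UMIs, Gzmk was found in 27.3% of chow diet members and 30.8% of WD members. With 30 to 99 it was found in 41.7% and 57.4%, and with 100 or more in 69.2% and 72.6%. Median depth was 3832, 4052.5 and 4337.5 UMIs along these bins with the chow diet and 2810, 2886 and 3420 with WD. After each cell was thinned to 1000 UMIs the Gzmk shares kept this order, at 9.09%, 25.0% and 30.8% with the chow diet and 12.8%, 26.2% and 38.7% with WD. Gzmb was found in 0%, 41.7% and 80.8% of chow diet members and in 20.5%, 33.6% and 64.5% of WD members. Ccr7, the lymph node homing receptor, stood in the opposite order, at 54.5%, 16.7% and 7.7% of chow diet members and 33.3%, 13.1% and 12.9% of WD members. The bins hold 11, 36 and 26 chow diet members and 39, 122 and 62 WD members, and for Gzmk the intervals of neighbouring bins overlap, except between the lower 2 bins of the WD library (17.0 to 47.6% and 48.1 to 66.3%).

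**Figure D3:**
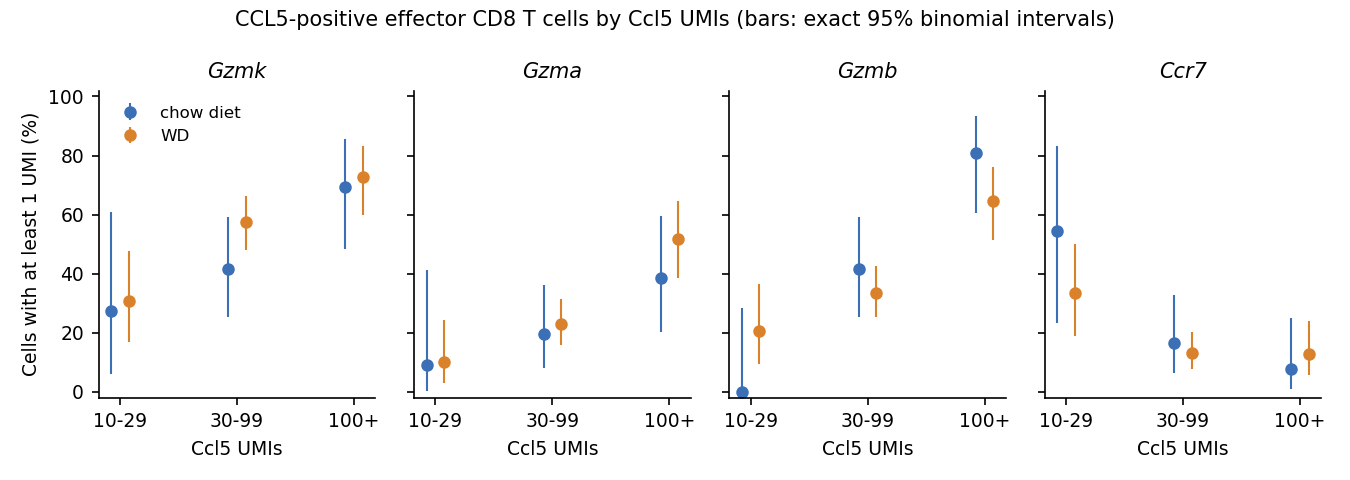
Share of members with a UMI of Gzmk, Gzma, Gzmb or Ccr7, in percent with exact 95% intervals as bars, by the number of Ccl5 UMIs in the cell, for each library. For members with 100 or more Ccl5 UMIs the Gzmk share is 69.2% with the chow diet and 72.6% with WD, against 27.3% and 30.8% with 10 to 29.

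Members were next set against Ccl5-low CD8 T cells of the same library, which asks what goes with Ccl5 among aortic CD8 T cells. UMIs were summed per class and scaled to the class total as CPM (counts per 1000000 UMIs). Of 5144 genes with at least 10 UMIs in each library, 205 (3.99%) were at least 2-fold higher in members in both libraries, and 124 (2.41%) at least 2-fold lower. The median log2 ratio of all measured genes was 0.19 with the chow diet and 0.12 with WD. Of the cytotoxic genes 9 of 11 were at least 2-fold higher in both libraries. The list medians were 4.06 and 2.22.

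Gzmb had 256 UMIs in members and 0 in Ccl5-low cells of the chow diet library, at least 67.6-fold higher, and 319 against 1 in the WD library (ratio 170, 30.4 to 6750). Gzmk had 88 against 0 UMIs, at least 23.2-fold higher, and 292 against 1 (ratio 156, 27.8 to 6180). Gzma had 357 against 2 UMIs in the chow diet library (ratio 141, 38.8 to 1172), although 145 of the 357 came from 1 cell. In the WD library it had 664 against 2 UMIs (ratio 177, 48.9 to 1467). The 3 granzymes were thus almost without UMIs in Ccl5-low cells. Nkg7 was present in both classes, at 3259 against 389 CPM (8.38-fold) and 3625 against 780 CPM (4.65-fold). Serpinb9, the inhibitor that shields killer cells from granzyme B, had 80 against 3 UMIs and 105 against 1. Fasl had 72 against 3 and 131 against 2 UMIs.

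NK-type receptors had medians of 3.69 and 4.47, or 3.10 and 2.87 with genes at 0 UMIs set to their lower bound, and 7 of 9 were at least 2-fold higher in both libraries. Klrc1 had 123 and 213 UMIs in members and 0 in Ccl5-low cells of either library, at least 32.5-fold and 37.9-fold higher. Klre1, another receptor of this locus on chromosome 6, had 63 and 75 UMIs against 0 and 0, at least 16.6-fold and 13.4-fold higher. Klrk1, which encodes the activating receptor NKG2D, was 9.01-fold and 23.4-fold higher. Klrd1, the CD94 partner of NKG2A, was nearer in the classes, with 271 against 142 CPM and 271 against 191 CPM. Ly6 and Klra genes have close copies, and reads that fit several of them may have been lost or shared in the authors' counting.

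Ligands other than Ccl5 were less uniform, with 3 of 10 at least 2-fold higher in both libraries and list medians of 0.68 and 0.38. Ccl4, another CC chemokine of activated lymphocytes, had 640 against 77.0 CPM (8.31-fold) and 938 against 102 CPM (9.15-fold). Ifng, interferon gamma, had 48 and 104 UMIs in members and 0 in Ccl5-low cells of both libraries, at least 12.7-fold and 18.5-fold higher. It was found in 30.7% and 22.5% of members and in 0 and 0.61% of B cells. Xcl1, which attracts cross-presenting dendritic cells, had 106 against 0 UMIs in the chow diet library, with 39 of the 106 from 1 cell. In the WD library Xcl1 had 175 against 5 UMIs, with 54 from 1 cell.

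Homing receptors split into 7 of 13 at least 2-fold higher in members in both libraries (among them Ccr2, Cxcr3, Itga4, Itgal, Itgb1 and Itgb2) and 1 lower, Ccr9, which guides cells to the gut. Cxcr3, the receptor for interferon-induced chemokines, had 54 against 3 and 115 against 3 UMIs. The integrin chain Itgb1 had 296 against 42.4 CPM (6.98-fold) and 407 against 41.9 CPM (9.70-fold). Cxcr6, which binds Cxcl16 on macrophages, was 1.18-fold and 1.87-fold higher, and its interval spans 1 in the chow diet library (0.752 to 1.86). Itgae, the CD103 chain of epithelial resident T cells, was found in 0 of 75 and 0.4% of members but in 9.7% and 12.5% of Ccl5-low cells.

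Of the transcription factors 4 of 11 were at least 2-fold higher in both libraries (Bhlhe40, Eomes, Stat4 and Tbx21). Tbx21, which encodes T-bet, had 24 and 39 UMIs in members and 0 in Ccl5-low cells, at least 6.33-fold and 6.94-fold higher. Its partner Eomes had 30 against 2 and 73 against 14 UMIs. Among inhibitory receptors Pdcd1, which encodes PD-1, was 3.67-fold and 15.2-fold higher, Lag3 had 31 against 0 and 49 against 5 UMIs, and Cd160 had 29 against 2 and 59 against 4. Tox, a factor of chronically stimulated T cells, was 1.21-fold (0.771 to 1.92) and 2.76-fold (1.78 to 4.42) higher. Of the cytokine receptors, Il2rb, the shared beta chain for interleukins 2 and 15, was 4.43-fold and 3.66-fold higher.

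Of the cytokine receptors 4 of 9 and of the inhibitory receptors 3 of 6 were at least 2-fold higher in both libraries, and of tissue residency genes 3 of 8 (Bhlhe40, Crtam and Rgs1). The counts were 2 of 14 for T cell receptor signalling, 1 of 11 for its response genes, 1 of 11 for cytoskeleton and S100 genes, 1 of 7 for proliferation, 0 of 11 for interferon response and 0 of 13 for immediate early genes. Lgals1, galectin 1 of activated T cells, was the 1 of the cytoskeleton list, at 1250 against 327 CPM and 905 against 412 CPM. Cells that held 3 or more UMIs of other lineages were also left out, with each library taken by itself. Such counts ask for a single library, so they cannot be set against the counts for both libraries above. Cytoskeleton and S100 genes were then at least 2-fold higher in 5 of 11 (chow diet) and 8 of 11 (WD), with medians of 0.84 and 1.27. Proliferation genes were so in 6 of 6 and 9 of 11 (medians at the bound 1.46 and 1.37), and interferon response genes in 5 of 11 and 0 of 11. Only 6 of 13 proliferation genes were measured in the chow diet library. There Birc5 had 10 against 0 UMIs, Top2a 15 against 1 and Tyms 12 against 1, with 8, 10 and 8 from 1 member each. With all cells these genes were already past 2-fold there (log2 ratios 4.24, 2.59 and 2.14). So were Ifit1, Ifit3, Isg15, Isg20 and Zbp1 (2.66, 1.20, 1.52, 1.16 and 1.40).

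Genes of naive and stem-like memory cells were lower in members, with 0 of 13 higher, 6 of 13 at least 2-fold lower in both libraries and medians of −1.17 and −1.33. Ccr7 had 97.6 against 439 CPM in the chow diet library and 147 against 636 CPM in the WD library. The naive cell factor Lef1 had 137 against 431 CPM and 103 against 477 CPM. Igfbp4 had 1 against 44 and 8 against 75 UMIs. Tcf7, the factor of stem-like T cells, was nearer, with log2 ratios of −0.73 and −1.10. Ccr7 and Lef1 were still found in 20.0% and 29.3% of chow diet members and in 18.2% and 22.5% of WD members. B cells express Ccr7 themselves (89.6% and 88.9%), so they give no background for it.

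Some genes with low ratios belong to other lineages, and their part in the result was not tested. B cell markers summed to 948 and 1053 CPM in members against 5772 and 5909 in Ccl5-low cells, and macrophage markers to 122 and 108 CPM against 1394 and 463. Cxcl2, a neutrophil chemokine of myeloid cells, had 333 UMIs in chow diet Ccl5-low cells, 255 of them in 1 cell. Without cells that held 3 or more UMIs of other lineages, 204 genes were higher and 49, not 124, were lower. Tyrobp then had 0 against 3 UMIs in the chow diet library, below the minimum of 10 for a measured gene, and 8 against 3 in the WD library (log2 ratio 0.34). H2-Aa had 12 against 10 and 23 against 7 UMIs (log2 ratios −0.21 and 0.65). Igfbp4 then stood at −4.84 and −5.74 and Ccr7 at −2.71 and −1.94.

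**Figure D4:**
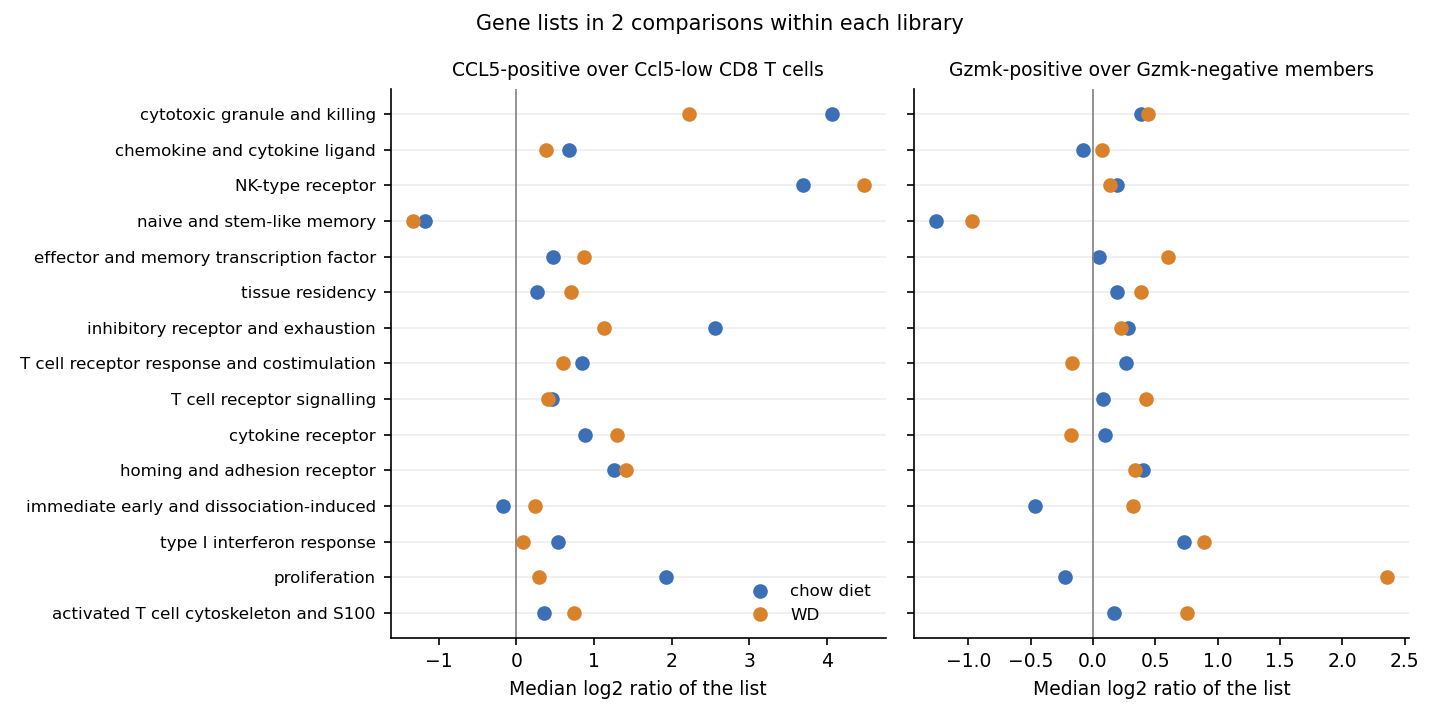
Median log2 ratio of each gene list with 1 point per library, for members over Ccl5-low CD8 T cells on the left and Gzmk-positive over Gzmk-negative members on the right. On the left the cytotoxic list lies at 4.06 and 2.22, the NK-type receptor list at 3.69 and 4.47 and the naive list at −1.17 and −1.33, against medians of 0.19 and 0.12 over all measured genes.

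Ly6c2, a surface protein of memory CD8 T cells, was present in both classes, at 1003 against 223 CPM and 707 against 419 CPM. Members were therefore also set against the Ccl5-low cells with a Ly6c2 UMI (19 and 48 cells) and without one (43 and 64). Against those with a Ly6c2 UMI, the cytotoxic list had medians of 4.05 and 1.79 and the naive list −1.22 and −1.44. The NK-type receptor list had 4.50 and 5.52, but 6 of its 9 genes were at 0 UMIs in one class. With such genes at their lower bound the medians were 1.09 and 1.57 for NK-type receptors and 2.73 and 1.79 for the cytotoxic list. Against those without a Ly6c2 UMI, the medians were 3.64 and 4.04 for the cytotoxic list (3.64 and 2.58 at the bound), 3.51 and 3.86 for NK-type receptors (2.90 and 2.02 at the bound) and −1.01 and −1.19 for the naive list. The lists thus stood on the same side of 0 against either kind of Ccl5-low cell.

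NK-type cells also hold Ccl5 and granules, and against them the members differed in which granzyme and which receptors they held. Of 4150 genes, 175 (4.22%) were at least 2-fold higher in members in both libraries and 153 (3.69%) at least 2-fold lower. Gzma stood at 1088 CPM in chow diet members and 8218 CPM in NK-type cells (7.55-fold lower), and at 826 and 10119 CPM in the WD library (12.3-fold lower). Gzmk lay on the other side, with 88 against 0 UMIs, at least 5.72-fold higher, and 292 against 4 UMIs (8.82-fold, 3.41 to 32.6). Gzmb was 780 against 969 CPM, with an interval of the ratio that spans 1 (0.608 to 1.08), and 397 against 1297 CPM. Nkg7 was abundant in both, at 3259 against 3640 CPM and 3625 against 5240 CPM.

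Leaving out Ncr1 and Klrb1c, which chose the NK-type cells, 7 of 11 measured NK-type receptor genes were at least 2-fold lower in members in both libraries, and 0 were at least 2-fold higher. Klre1 was 6.75-fold and 13.0-fold lower and Klrd1 4.03-fold and 3.72-fold lower, while Klrc1 was 2.17-fold and 1.63-fold lower. For Klre1, Klrd1 and Klrc1 the level in members thus lay between those of Ccl5-low CD8 T cells and NK-type cells. Ccl3, a chemokine like Ccl4, was 35.5-fold and 12.8-fold lower than in NK-type cells. Of 6 inhibitory receptor and exhaustion genes, 3 (Ctla4, Pdcd1 and Tox) were at least 2-fold higher in members in both libraries, while Cd160 was lower, with log2 ratios of −0.80 and −1.24. Pdcd1 had 88 and 199 UMIs in members and 0 in NK-type cells, at least 5.72-fold and 8.01-fold higher, and Tox was 3.38-fold (1.10 to 16.9) and 7.79-fold (2.11 to 65.0) higher. The NK-type classes are small, at 17 and 26 cells.

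Members with a Gzmk UMI (36 and 128 cells) were compared with members without one (39 and 103). Of 3657 genes, 34 (0.93%) were at least 2-fold higher in the Gzmk-positive cells in both libraries and 16 (0.438%) at least 2-fold lower. The counts became 21 and 28 without the top cell of each gene, and 7 and 5 with cells thinned to 1000 UMIs. Naive and stem-like memory genes were lower, with 0 of 11 and 0 of 12 measured genes higher and medians of −1.26 and −0.97, against 0.09 and 0.16 over all genes. Ccr7 was found in 5.56% against 33.3% of chow diet members and in 6.25% against 33.0% of WD members. Il7r, the receptor of long-lived T cells, was found in 19.4% against 38.5% and in 11.7% against 37.9%. Thinned to 1000 UMIs, the Il7r shares were 8.33% against 5.13% in the chow diet library, the other way round, and 3.91% against 16.5% in the WD library. B cells held Il7r in 1.49% and 0.81%. Both classes were of like depth in the WD library (medians 3056 and 3089 UMIs), while in the chow diet library the Gzmk-positive members were shallower (3783.5 and 4711).

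Eomes was higher in Gzmk-positive members, at 129 against 60.9 CPM and 119 against 55.8 CPM, with an interval that spans 1 in the chow diet library (ratio 0.957 to 4.92). Ccr2, the receptor for Ccl2, was 2.07-fold and 2.25-fold higher. Gzma was 6.19-fold higher in the chow diet library, where 145 of the 298 UMIs came from 1 cell, and 2.49-fold higher in the WD library. Of 10 interferon response genes 5 were at least 2-fold higher in both libraries (Ifit1, Ifit3, Isg15, Isg20 and Zbp1), and the list medians were 0.73 and 0.89. Among Gzmk-positive chow diet members, the top cell held 12 of 17 Ifit3 UMIs, 6 of 12 for Ifit1 and 10 of 30 for Isg15. In that library the intervals of the ratio spanned 1 for Ifit1 (0.763 to 6.30) and Isg20 (0.657 to 11.1), but not for Ifit3, Isg15 and Zbp1. With cells thinned to 1000 UMIs the chow diet median of this list turned to −0.52.

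Ly6c2 was less frequent in Gzmk-positive members, at 50.0% against 71.8% and 32.8% against 62.1%. Klrg1, a receptor of terminal effector cells, was more frequent, at 27.8% against 12.8% and 20.3% against 5.83%. Klra7, a Ly49 receptor with close copies, had 1 against 16 and 1 against 25 UMIs. Lag3 was unlike in the libraries, with 25.0% against 23.1% of chow diet members and 20.3% against 2.91% of WD members. Mki67, a proliferation gene, was found in 1 Gzmk-positive and 2 Gzmk-negative members of the chow diet library and in 8 and 0 members of the WD library.

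Between the diets, 436 of 6891 genes (6.33%) were at least 2-fold higher in members of the WD library and 339 (4.92%) at least 2-fold lower. With at least 30 UMIs per gene, which fewer genes reach, these counts were 80 and 69. Of all 6891 genes, 3409 were higher and 3482 lower in WD. The median log2 ratio over all genes, WD over chow diet, was −0.007. Chow diet members were deeper (median 4290 against 3089 UMIs) and more often held UMIs of other lineages (28.0% against 10.4%), and the part of both in the values below was not tested. The identity lists were near 0: the cytotoxic list had a median of 0.01 with 7 of 13 genes higher, the naive list 0.060, and the homing list 0.064 with 7 of 14 higher. The first 2 fell on the other side of 0 in some settings, the cytotoxic list at down to −0.059 and the naive list at down to −0.063.

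Granzymes did not go one way between diets. Gzmk had 268 CPM with the chow diet and 363 CPM with WD (ratio 1.35, 1.06 to 1.74). Gzmb had 780 and 397 CPM (1.97-fold lower in WD; ratio 0.43 to 0.60) and was found in 48.0% and 38.5% of members. Gzma had 1088 and 826 CPM, a log2 ratio of −0.40. It became 0.35 once the cell with most Gzma UMIs, a chow diet cell, was left out and every WD cell was kept. Gzmm, another granzyme, had 5 UMIs in 5 chow diet members and 46 UMIs in 25 WD members (log2 ratio 1.85). Nkg7 differed little, with 3259 and 3625 CPM.

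NK-type receptors had the lowest list median, −0.64, with 2 of 11 genes higher and 9 lower in WD. The counts of this paragraph stand beside 3409 higher and 3482 lower of all 6891 measured genes. Klre1 had 192 CPM in chow diet members and 93.3 CPM in WD members (log2 ratio −1.04), and Klrc1 375 and 265 CPM (−0.50). Ligands had a median of −0.57 with 4 of 11 higher, yet Ccl4, which has the most UMIs among them, had 640 and 938 CPM (0.55). T cell receptor response and costimulation genes were lower in 11 of 12 (median −0.27) and T cell receptor signalling genes in 11 of 14 (−0.08). Interferon response genes were lower in 10 of 13 (−0.43), and inhibitory receptor genes in 7 of 9 (−0.37). Without cells holding other-lineage UMIs the NK-type receptor median was −0.15 and the ligand median −0.30. Without the top cell of each gene the NK-type receptor median was −0.12, and with cells thinned to 1000 UMIs the ligand median turned to 0.063. The medians of the other lists were −0.25 for transcription factors, −0.22 for cytoskeleton and S100, −0.16 for proliferation, −0.090 for residency, −0.068 for immediate early genes and 0.061 for cytokine receptors. Signs turned with the setting: proliferation stood at 1.41 with at least 2 CD8 UMIs and 0.61 without the top cell of each gene, immediate early genes at 0.13 with at least 2 CD8 UMIs, and cytokine receptors at −0.094 without the top cell. T cell receptor signalling stood at 0.022 with thinned cells.

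Il2, the T cell growth factor, was found in 15 of 75 chow diet members (20.0%) and 9 of 231 WD members (3.9%), with 17 and 9 UMIs (log2 ratio −2.13). In B cells Il2 was found in 3.7% and 2.0%. The share in WD members lay near the B cell values, and that in chow diet members above them. Cxcr6 was higher in WD members, at 266 against 159 CPM (ratio 1.68, 1.23 to 2.32). Rgs16, a regulator of G protein signalling in lymphocytes, had 46 UMIs in 15 chow diet members and 29 UMIs in 21 WD members (log2 ratio −1.93), and Kdm6b, a histone demethylase, had 55 and 44 UMIs (−1.60).

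Several of the other genes with the highest and lowest diet ratios rested on few cells. Il1b, a cytokine of myeloid cells, had 51 UMIs in 11 WD members, 26 of them in 1 cell, against 2 in the chow diet library. Tnfrsf4, the costimulatory receptor OX40, had 30 UMIs in 3 chow diet members and 9 in 4 WD members. Itm2a had 39 UMIs in chow diet members, 19 of them in 1 cell, against 17 in WD members. Cxcl10, an interferon-induced ligand of Cxcr3, had 23 UMIs in 3 chow diet members against 14 UMIs in the WD library.

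**Figure D5:**
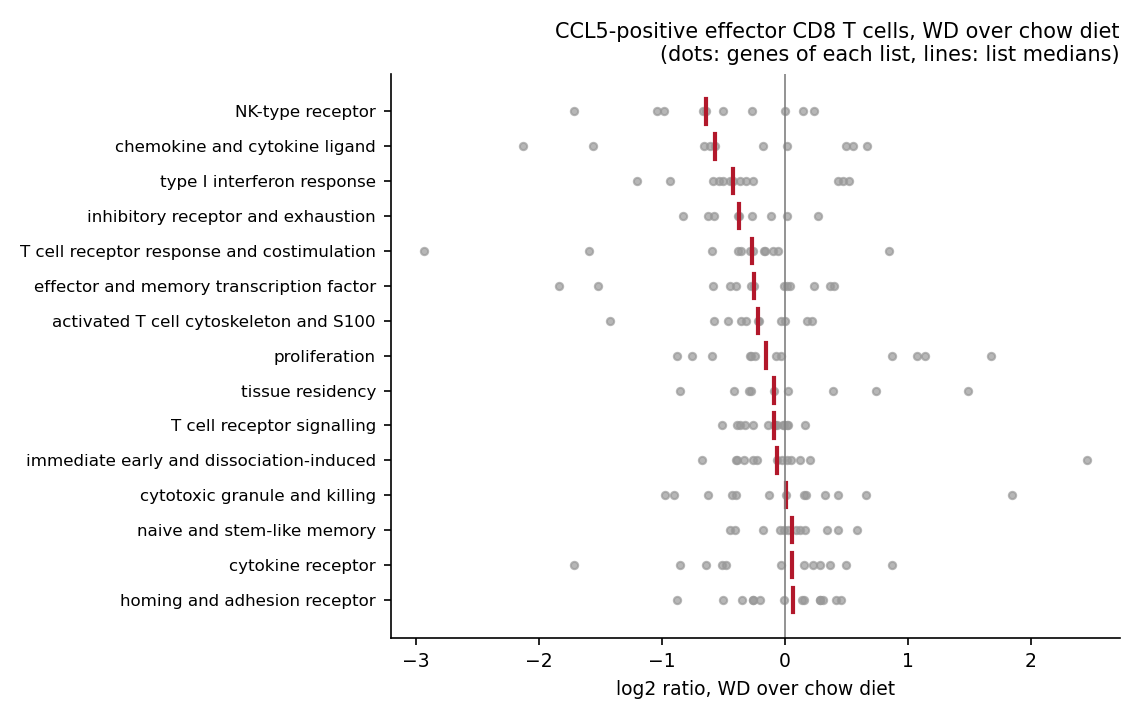
Log2 ratio, WD over chow diet, of the measured genes of each list in members, with each point 1 gene and the red line the list's median. NK-type receptors have a median of −0.64 and ligands −0.57, while the cytotoxic list lies at 0.01 and the median of all measured genes at −0.007.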

How the data were processed

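Leukocytes sorted from aortas were measured as 1 library per diet. The authors deposited raw UMI counts, 1 matrix per library, per the file headers. Cell Ranger, STAR and the build mm10 are named in the submitters' processing notes. Tool versions, and the treatment of strand and of reads with several matches, were not given in the sources used here.

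Cells with at least 200 genes and at most 10% mitochondrial UMIs were kept, so 13 chow diet and 16 WD barcodes of 909 and 2077 were removed. Total counts were 4608033 and 8782901 UMIs. Genes were matched to symbols by Ensembl ID (27645 of 27998). Scrublet, run through scanpy 1.11.5, called 3 and 2 of the kept cells, under 0.5%, so it did not work as a filter, and no cell was removed for it; doublets may remain. Computation used Python 3.11.15, numpy 2.4.6 and scipy 1.17.1, and the ratio code was tested on simulated data.

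UMIs were summed over the cells of a class and library, since cells are not replicates. Log2 ratios had 0.5 UMIs added, scaled by class total. A gene was measured with at least 10 UMIs, and a 2-fold difference was used for counts. A class at 0 UMIs gives a bound from a floor of 3 counts over the class, and a share of 0 a limit of 3 counts of its cells. Shares have exact binomial (Clopper-Pearson) 95% intervals, and ratios exact conditional ones. UMI levels were not compared between genes.

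The members, 15 gene lists and markers were chosen with earlier results of these data known. Genes were named by rank: the 10 highest and 10 lowest between diets (at least 30 UMIs, in at least 10 members), 12 and 12 against Ccl5-low cells, 8 and 8 for the Gzmk split, up to 6 of each list with most UMIs, and marker genes. Il2, Klra7, Tnfrsf4, Itgae, Lag3, Klrg1 and some further list members that fall outside that rule were chosen after their values were seen. The alternatives tried were other limits of the rule, higher count minimums, thinning to 1000 UMIs, other pseudocounts and centring, means over cells, and leaving out each gene's top cell. Leaving out cells with UMIs of other lineages was chosen after seeing the data. Some genes of the lists are not reported here by name.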

Additional observations from a re-analysis of the deposited data

Results flagged for a closer look

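The results here were picked because the libraries stood on opposite sides of 0 under the same comparison, or because a signal lay in cells that the comparisons did not use. No difference between libraries was tested, since each diet has 1 library.

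Immediate early genes, which respond within minutes to stimulation and to tissue digestion, had a median log2 ratio of members over Ccl5-low CD8 T cells of −0.17 with the chow diet and 0.24 with WD. Their median between Gzmk-positive and Gzmk-negative members was −0.46 and 0.32. The chow diet median over Ccl5-low cells did not keep its sign. It was 0.14 with at least 2 CD8 UMIs, 0.11 with cells thinned to 1000 UMIs and 0.022 without the top cell of each gene. Proliferation genes in the same split had −0.23 and, in the WD library, 2.35, where Mki67 had 17 against 0 UMIs; without the top cell of each gene the chow diet median was 1.25. Ligand genes other than Ccl5 had −0.084 and 0.075, T cell receptor response genes 0.27 and −0.17, and cytokine receptor genes 0.093 and −0.17. For T cell receptor response genes the chow diet value turned to −0.17 with thinned cells and −0.18 without the top cell of each gene.

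Gzmk UMIs were also found in T cells with at least 2 Ccl5 UMIs that the rule leaves out. Among those with both Cd4 and CD8 UMIs, 7 of 12 chow diet cells and 5 of 6 WD cells held Gzmk. Among those with neither, 5 of 23 and 17 of 62 held it. Of those with a Cd4 UMI only, 5 of 25 WD cells held it, and 1 of 14 in the chow diet library. B cells held Gzmk in 0 and 0.2%.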

How the results depend on the processing

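No paired analysis was possible because each diet has 1 library. With 0 UMIs of B cell, C1q and thymocyte genes allowed, members were 6.36% and 9.85% of kept cells, genes lower than in Ccl5-low cells 52, diet medians −0.28 (NK-type receptor), −0.31 (residency), −0.19 (T cell receptor signalling), −0.27 (immediate early), −0.53 (proliferation) and −0.10 (S100), and the chow diet S100 median over Ccl5-low cells −0.12. With at least 2 CD8 UMIs, WD members were 9.85%, genes lower than in Ccl5-low cells 47, diet medians −0.20 (ligand), −0.45 (NK-type receptor), 0.13 (immediate early) and 1.41 (proliferation), and over Ccl5-low cells in the chow diet library immediate early genes 0.14, Ifitm2 0.29, H2-Aa 1.32 and Furin 0.77. With 1 Ccl5 UMI as the minimum, diet medians were −0.26 (immediate early) and −0.41 (S100), and WD proliferation over Ccl5-low cells −0.036. With at least 30 UMIs a gene, the counts were 80 higher and 69 lower by diet (ligand median −0.081), 71 and 45 over Ccl5-low cells, and 6 and 5 by Gzmk. As means over cells, diet medians were −0.43 (NK-type receptor) and −0.41 (immediate early). With the rule applied after thinning, shares were 6.36% and 8.83%, and without immature cells 10.9% and 12.7%. Thinned to 1000 UMIs, genes lower by diet were 217, and diet medians 0.063 (ligand), −0.27 (NK-type receptor), −0.10 (transcription factor), −0.051 (inhibitory), 0.022 (T cell receptor signalling), 0.26 (homing), −0.35 (immediate early), −0.48 (proliferation) and −0.41 (S100). Thinned counts were 79 and 24 over Ccl5-low cells and 7 and 5 by Gzmk, and chow diet medians −0.074 (cytokine receptor) and 0.11 (immediate early) over Ccl5-low cells and −0.17 (T cell receptor response) and −0.52 (interferon) by Gzmk. Without cells holding other-lineage UMIs, chosen after seeing the data, diet medians were 0.16 (cytotoxic), −0.30 (ligand), −0.15 (NK-type receptor), −0.13 (inhibitory), 0.21 (homing), −0.43 (immediate early) and −0.044 (S100), genes lower than in Ccl5-low cells 49, and WD Tyrobp 0.34 and H2-Aa 0.65. Without the top cell of each gene, diet medians were 0.12 (cytotoxic), −0.35 (ligand), −0.12 (NK-type receptor), −0.040 (transcription factor), −0.094 (cytokine receptor), −0.29 (immediate early), −0.17 (interferon) and 0.61 (proliferation), counts by Gzmk 21 and 28, chow diet immediate early over Ccl5-low cells 0.022 and T cell receptor response by Gzmk −0.18. Among these, the sign of the diet median turned for the ligand, T cell receptor signalling, immediate early, proliferation and cytokine receptor lists. Fewer genes or cells enter the stricter settings; the cause of other moves was not tested. Of single-gene values, 241 of 252 by diet and 549 of 603 over Ccl5-low cells moved by less than their counting interval. Mean and median differed in sign by diet for the residency, immediate early, proliferation, cytokine receptor and homing lists.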
